A study of Mus musculus with 16 samples.

Results

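The genes described here are 10 adipokines and adiponectin receptors: the secreted factors Lep, Adipoq, Retn, Cfd, Nampt, Apln and Rarres2, the adiponectin receptors Adipor1 and Adipor2, and the adiponectin-binding cadherin Cdh13. They were chosen by name, through the RefSeq identifiers of the rows in the deposited table. The 10 genes account for 21 of its 130343 rows, and 6 of the 21 rows had no count in any library. Counts were summed per gene, which gave 59078 features, and 9 of the 10 genes passed the filter on low counts. Cdh13 did not pass it, with 11 counts in all 16 libraries.

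White fat is an endocrine organ as well as an energy store. Leptin, made by adipocytes, reports the size of the fat stores to the brain and lowers appetite, while adiponectin improves insulin sensitivity in liver and muscle through AdipoR1 and AdipoR2 and binds T-cadherin, the product of Cdh13, on vessel walls and muscle. Subcutaneous fat is known to release more leptin than visceral fat, and circulating adiponectin is known to be lower in obesity.

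Male C57BL/6J mice of wild-type genotype were kept on a normal laboratory diet (lean) or on a high-fat chow in which fat gave 42% of energy, with 0.2% cholesterol (obese), from 10 weeks of age for 12 to 14 months. Each of 4 lean and 4 obese mice gave inguinal subcutaneous adipose tissue (SAT, left and right depots combined) and mesenteric visceral adipose tissue (VAT), from which visible vessels had been dissected, so that the 16 libraries form 4 groups of 4. Males of a single strain were used, and whole depots were measured, in which fewer cells of a type and less RNA per cell cannot be told apart. The comparisons ask which genes respond to the diet in each tissue, how the tissues of the same mouse differ, and whether the diet response differs between the tissues.

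Total counts per library ranged from 1256082 to 16614407. The shallowest libraries were VAT of lean replicate 1 and VAT of obese replicate 1, with 2247737 counts. Adipocyte markers were high in every library: the summed level of 16 markers ranged from 120541 to 149462 CPM (counts scaled to a common library size, here with TMM factors) in lean SAT, 75079 to 94882 in obese SAT, 79542 to 113121 in lean VAT and 42978 to 59684 in obese VAT. Markers of mesothelium, the lining of the abdominal cavity, summed to between 251 and 607 CPM in VAT and to at most 1.41 in SAT. Of 10 macrophage markers tested, 7 were higher in obese SAT and 9 in obese VAT, and their summed level lay between 2562 and 3285 CPM in lean VAT and between 5567 and 7844 CPM in obese VAT.

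Promoter sequences are shown for the genes that were lower in VAT than in SAT in all 8 mice, Lep and Apln. Of the 10 genes, 8 have a promoter in the RefSeq table (GRCm38.p6), and the bases were located in GRCm39, the build of the counts. Only the part that lies before both the RefSeq and the GENCODE start of the gene is printed, from base 250 before the RefSeq start. For Lep this is chr6:29059970-29060215 on the plus strand, ending 5 bases before the start. For Apln it is chrX:47123776-47123980 on the minus strand, ending 46 bases before the start. Capitals mark a GC box (GGGCGG) and, in Lep, a C/EBP-type site (TTGCNNAA).
Lep: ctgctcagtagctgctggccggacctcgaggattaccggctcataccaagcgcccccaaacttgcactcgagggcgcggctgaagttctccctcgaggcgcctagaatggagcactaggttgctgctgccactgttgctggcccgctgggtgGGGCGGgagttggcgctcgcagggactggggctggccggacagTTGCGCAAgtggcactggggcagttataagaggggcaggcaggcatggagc
Apln: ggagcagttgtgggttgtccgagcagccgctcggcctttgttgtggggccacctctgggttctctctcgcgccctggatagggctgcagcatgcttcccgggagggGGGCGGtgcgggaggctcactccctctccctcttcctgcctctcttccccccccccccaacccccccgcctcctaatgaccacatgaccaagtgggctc
In Lep the GC box lay at positions -98 to -93 from the start and the C/EBP-type match at -55 to -48, where it overlaps matches of the short E-box pattern CANNTG on either side. In Apln the GC box lay at -144 to -139. Both strands were searched in the 250 bases before the start. GGGCGG occurs in 32.7% of the 32851 promoters in the table and TTGCNNAA in 9.56%. Among the 8 genes, TTGCNNAA was found in Lep alone, and GGGCGG in Lep, Nampt, Apln and Adipor1. No match of the 8 motifs searched was found for Adipor2. Beside these 3 they were the TATA box (TATAAA), the CCAAT box, the E-box CACGTG, which is also a match of the short pattern, the hypoxia response core ACGTG, which lies within that E-box, and the nuclear receptor site AGGTCA. These matches are descriptions of sequence only.

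Differences were tested with edgeR over 12185 features, and a gene was called at a Benjamini-Hochberg adjusted p below 0.05. All levels below are CPM with TMM library sizes, and fold changes are log2 values with their standard error (SE). In SAT of obese mice, Adipor2 rose and Cfd fell, 1 of 9 genes in each direction, where 6.35% of all features were higher and 5.25% lower. In VAT of obese mice, Adipoq, Cfd and Adipor2 fell and none of the 9 rose, against 5.28% of features lower and 6.89% higher. With the log2 fold change also beyond 1.5 in either direction, none of the 9 was called in either tissue, against 2.59% of features in SAT and 3.22% in VAT. The median log2 fold change of all features was -0.00024 in SAT and -0.016 in VAT.

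Between the tissues of lean mice, Lep and Apln were lower in VAT and Adipor2 was higher, 2 and 1 of 9 genes, where 7.22% of all features were lower and 8.67% higher. In obese mice, Lep, Apln, Adipor2 and Adipoq were lower in VAT and none was higher, against 15.1% and 16.3% of features. The diet response differed between VAT and SAT for Adipor2 alone, which had the lower value in VAT. Of all features, 1.62% had a lower and 0.854% a higher diet response in VAT. The fits across diets, across tissues and of their difference share the same 16 libraries. Over all features, the balance of directions rests on the scaling, except for the diet in VAT. There the median was 0.015 with library totals, and 837 features were called higher and 588 lower, in place of 839 and 643. With library totals in place of TMM factors, the median of all features moved to -0.20 for the diet in SAT, 0.15 and 0.38 between the tissues of lean and obese mice and 0.23 for the difference, and the features called higher and lower were 429 and 1664 in place of 774 and 640 in SAT, 1387 and 579 in place of 1057 and 880 in lean mice, 3893 and 778 in place of 1986 and 1834 in obese mice, and 363 and 100 in place of 104 and 197 for the difference. Adipor2 kept its direction in all 5 comparisons under that scaling, as Lep and Apln did between the tissues.

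**Figure D1:**
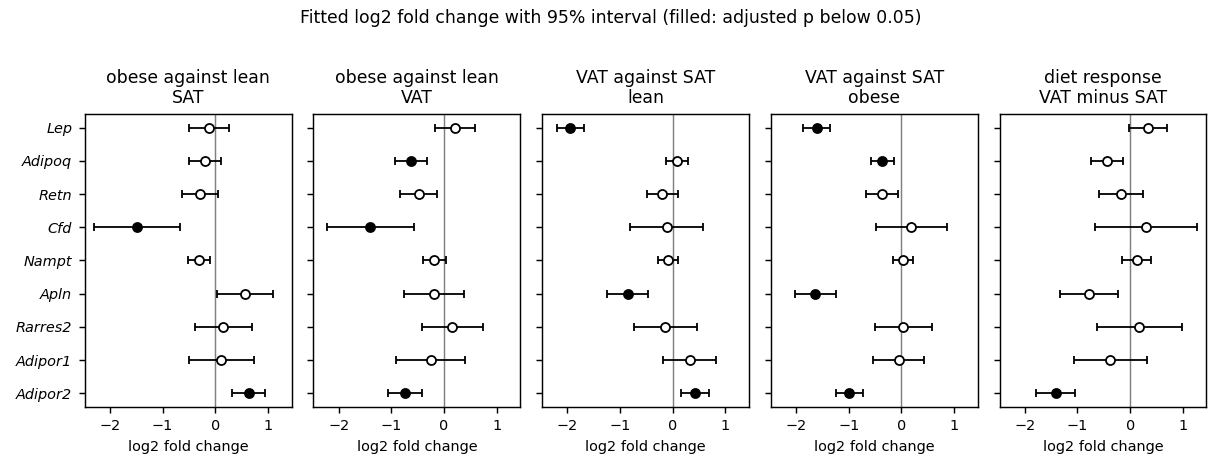
Fitted log2 fold change (horizontal axis) of the 9 tested genes (rows) in the 5 comparisons (panels), with 95% intervals from the standard error. Filled points have an adjusted p below 0.05: Adipor2 changed in opposite directions in SAT (0.63) and VAT (-0.74), and Lep and Apln were lower in VAT than in SAT in both diet groups.

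Leptin was lower in VAT than in SAT of every mouse. Lep (chr6:29060216-29073877, plus strand, 1 row) was measured at 17351, 9983, 13859 and 15327 CPM in SAT of lean replicates 1 to 4 and at 13187, 12378, 12709 and 13936 CPM in SAT of obese mice. In VAT of the same mice it was at 3548, 2383, 3673 and 5412 CPM in lean and 4751, 5453, 3856 and 3352 CPM in obese mice. Every SAT library lay above every VAT library, while lean and obese libraries overlapped in both tissues. Lep was lower in VAT by 2.83 to 4.89 times within each lean mouse and by 2.27 to 4.16 times within each obese mouse. The fitted difference was -1.94 (SE 0.13, adjusted p = 1.63e-09, edgeR) in lean mice and -1.61 (SE 0.13, adjusted p = 1.50e-08, edgeR) in obese mice. Of the 13 adipocyte markers tested, 3 were lower in VAT in lean mice and 9 in obese mice, and their part in the difference of Lep was not tested. In lean SAT the gene took 0.971% to 1.76% of all counts of a library.

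The long high-fat diet left no called change of Lep in either tissue. The means were 14130 ± 3114 CPM in lean and 13052 ± 676 in obese SAT (SD, n = 4), a log2 fold change of -0.11 with a 95% interval from -0.50 to 0.27. In VAT they were 3754 ± 1248 and 4353 ± 934 CPM, a log2 fold change of 0.21 with an interval from -0.17 to 0.60. Without lean replicate 2 the VAT value was 0.069 and without lean replicate 4 it was 0.47, and neither was called. Lean SAT libraries spread by a coefficient of variation of 22.0% and obese SAT libraries by 5.18%.

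Adiponectin fell in VAT of obese mice. Adipoq (chr16:22964106-22976810, plus strand, 1 row), which encodes the adipocyte hormone that acts on AdipoR1 and AdipoR2, was at 4946, 6437, 7216 and 6086 CPM in VAT of lean replicates 1 to 4. In VAT of obese mice it was at 2696, 4251, 5071 and 4049 CPM. Lean replicate 1 lay below obese replicate 3, and the other lean libraries lay above all obese ones. The mean fell from 6171 ± 943 to 4017 ± 985 CPM (SD, n = 4), a log2 fold change of -0.62 (SE 0.15, adjusted p = 0.0101, edgeR), and without lean replicate 3 this was -0.50 and not called (adjusted p = 0.0783). Adipocyte markers were also lower in obese VAT (mean log2 CPM 7.47 in lean and 6.84 in obese mice, with 4 of 13 called lower), and relative to them Adipoq differed by -0.01 (exact permutation p = 0.971, n = 4).

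In SAT, Adipoq ranged from 5269 to 6420 CPM in lean and from 4364 to 5818 CPM in obese mice, and the groups overlapped (log2 fold change -0.19, SE 0.15, adjusted p = 0.463, edgeR). With library totals in place of TMM factors this change was called (-0.40, adjusted p = 0.0289), a scaling that moved the median of all features by -0.20 in SAT. The difference of the diet response between the tissues was -0.45 (SE 0.15, adjusted p = 0.142), so that the fall was not shown to be particular to VAT. Between the tissues of obese mice Adipoq was lower in VAT in 4 of 4 mice, by 1.02 to 1.62 times (-0.36, SE 0.11, adjusted p = 0.015). That call was lost without obese replicate 1 (-0.21, adjusted p = 0.208) or obese replicate 4 (-0.29, adjusted p = 0.12), with both shallow VAT libraries left out (-0.25, adjusted p = 0.0994), without the mouse as a block (-0.34, adjusted p = 0.108) and with library totals in place of TMM factors (-8.32e-05, adjusted p = 1.00). In lean mice it was lower in VAT in 2 mice and higher in 2. The shallow libraries held the lowest Adipoq of each VAT group, and without both the fall with diet in VAT was -0.56 and called (adjusted p = 0.00633).

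Resistin, an adipocyte hormone of mice linked to insulin resistance, was not called in any comparison when its rows were summed, although some alternatives called it. Retn (chr8:3705324-3710689, plus strand) had means of 423 ± 59.0 CPM in lean and 345 ± 91.2 in obese SAT, and 372 ± 71.1 in lean and 265 ± 56.4 in obese VAT (SD, n = 4). The log2 fold change in VAT was -0.48 (SE 0.18, adjusted p = 0.081, edgeR). It was called without obese replicate 3 (-0.60, adjusted p = 0.0179) and without a filter on low counts (-0.49, adjusted p = 0.0168). Without lean replicate 1 it was -0.35 (adjusted p = 0.207). Between the tissues of obese mice the value was -0.37 (SE 0.15, adjusted p = 0.0761). It was called without obese replicate 3 (-0.62, adjusted p = 9.45e-04), without a filter (-0.40, adjusted p = 0.0203) and with upper quartile factors (-0.41, adjusted p = 0.0463). Without obese replicate 1 it was -0.25 (adjusted p = 0.321), and without obese replicate 2 it was -0.14 (adjusted p = 0.576).

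Of the rows of the gene, the smaller one was called for diet in VAT and between the tissues in both diet groups. The row NM_001204959 held 49377 of the 53936 counts of Retn and NM_022984 the other 4559. NM_022984 was at 41.3, 28.8, 20.9 and 17.7 CPM in VAT of lean replicates 1 to 4 and at 14.1, 11.5, 13.8 and 7.96 CPM in VAT of obese mice, with no overlap. It fell by 1.11 on the log2 scale (SE 0.26, adjusted p = 0.00622, edgeR on 13288 rows as deposited), while NM_001204959 had a value of -0.39 (SE 0.17, adjusted p = 0.167). In SAT, NM_022984 ranged from 27.9 to 60.2 CPM in lean and from 28.1 to 40.8 CPM in obese mice, with a log2 fold change of -0.31 (SE 0.23, adjusted p = 0.439), beside -0.29 (SE 0.17, adjusted p = 0.321) for NM_001204959. Between the tissues NM_001204959 was not called in lean mice (-0.16, adjusted p = 0.559, edgeR) or in obese mice (-0.25, adjusted p = 0.251). NM_022984 was lower in VAT in lean mice (-0.66, SE 0.16, adjusted p = 0.00515) and in obese mice (-1.51, SE 0.16, adjusted p = 2.68e-07). For NM_022984 the difference of the diet response between the tissues was -0.85 (SE 0.22, adjusted p = 0.0483). Its share of the counts of the gene was 9.81% ± 2.41 in lean SAT, 10.2% ± 1.93 in obese SAT, 7.20% ± 1.90 in lean VAT and 4.49% ± 0.826 in obese VAT (SD, n = 4). The shares in VAT overlapped (lowest 5.05% in lean and highest 5.3% in obese mice), and a difference between the rows was not tested. How reads shared by both transcripts were assigned is not given in the sources used here, so the split between rows is uncertain.

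**Figure D2:**
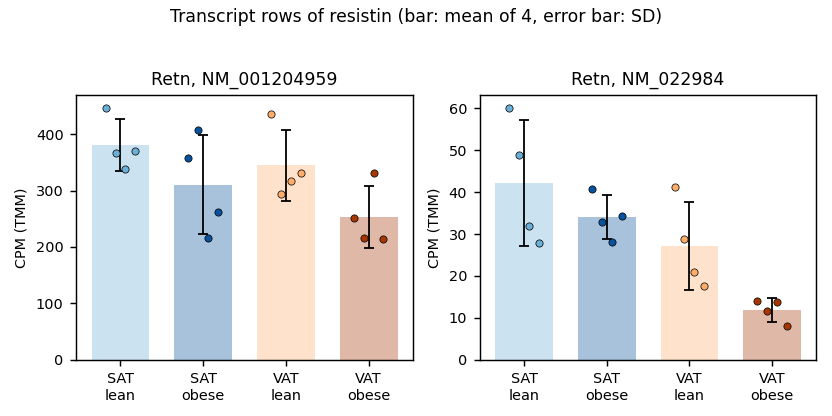
Level in CPM (vertical axis, from 0) of both transcript rows of Retn in the 4 groups, with points for libraries, bars for the mean of 4 and error bars for the SD. NM_022984 was at 7.96 to 14.1 CPM in obese VAT, below all other libraries. For NM_001204959 lean and obese libraries overlapped within each tissue.

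Adipsin fell in obese mice, most clearly in SAT. Cfd (chr10:79726668-79728496, plus strand) encodes complement factor D, the protease that starts the alternative complement pathway and one of the first adipokines described. All its counts lie on 1 of 3 rows, NM_013459. In SAT it was at 185, 342, 194 and 229 CPM in lean replicates 1 to 4 and at 84.6, 112, 70.1 and 72.7 CPM in obese mice, with no overlap. The mean fell from 237 ± 72.4 to 84.9 ± 19.4 CPM (SD, n = 4), a log2 fold change of -1.48 (SE 0.42, adjusted p = 0.0234, edgeR). The value was -1.27, -1.40 and -1.42 without lean replicate 2, obese replicate 3 and obese replicate 4, and was then not called (adjusted p = 0.0628, 0.0687 and 0.0573).

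In VAT, Cfd was at 675, 140, 194 and 127 CPM in lean replicates 1 to 4 and at 190, 59.0, 115 and 63.1 CPM in obese mice. Lean replicate 1 stood far above the rest, and the groups overlapped. The log2 fold change was -1.40 (SE 0.42, adjusted p = 0.0322, edgeR). Without lean replicate 1 it was -0.56 and not called (adjusted p = 0.253), and the call was also lost without obese replicates 2, 3 or 4 (-1.15, -1.40 and -1.18), with DESeq2 (-1.39, adjusted p = 0.0601), with library totals in place of TMM factors (-1.43, adjusted p = 0.0521) and in a fit of VAT alone (-1.40, adjusted p = 0.101). With both shallow VAT libraries left out, lean replicate 1 and obese replicate 1, the value was -0.96 and was called (adjusted p = 0.0173). The libraries with the highest Cfd within lean VAT and within obese VAT were also the shallowest of all 16, and the part of depth in these values was not tested. Between the tissues Cfd was not called in lean mice (-0.11, SE 0.35) or in obese mice (0.19, SE 0.35), and in each diet group it was lower in VAT in 2 mice and higher in 2.

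Nampt was not called in any comparison. Nampt (chr12:32869544-32903368, plus strand, 1 row), the enzyme of NAD salvage that also circulates as visfatin, ranged from 259 to 359 CPM in lean SAT, from 230 to 276 in obese SAT, from 273 to 315 in lean VAT and from 224 to 272 in obese VAT. The VAT groups did not overlap, yet the log2 fold change was only -0.18 (SE 0.11, adjusted p = 0.337, edgeR). In SAT it was -0.31 (SE 0.11, adjusted p = 0.0705, edgeR), and it was called by limma voom (-0.31, adjusted p = 0.0375), without lean replicate 4 (-0.40, adjusted p = 0.033) and with library totals in place of TMM factors (-0.51, adjusted p = 0.00201). Library totals also called it higher in VAT than in SAT of obese mice (0.40, adjusted p = 0.00285).

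Apelin, a peptide that acts on blood vessels and heart through its receptor Aplnr, was lower in VAT in every mouse. Apln (chrX:47114019-47123775, minus strand, 1 row) was at 78.1, 39.9, 33.2 and 43.1 CPM in SAT and 29.3, 26.8, 11.7 and 39.8 CPM in VAT of lean replicates 1 to 4. In obese mice it was at 75.6, 71.2, 86.8 and 55.7 CPM in SAT and 14.5, 26.9, 26.1 and 23.6 CPM in VAT. SAT and VAT overlapped in lean mice, through VAT of lean replicate 4, and were apart in obese mice. The difference was -0.85 (SE 0.20, adjusted p = 0.00501, edgeR) in lean mice and -1.63 (SE 0.20, adjusted p = 2.11e-06) in obese mice. Without lean replicate 3 the first was -0.65 and not called (adjusted p = 0.0639).

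The diet responses of Apln were 0.57 in SAT (SE 0.27, adjusted p = 0.193, edgeR) and -0.19 in VAT (SE 0.29, adjusted p = 0.756), and neither was called. Without lean replicate 1, the highest of the lean SAT libraries, the SAT value was 0.91 and called (adjusted p = 0.0338). Without a filter on low counts it was also called (0.61, adjusted p = 0.00885). The difference of the diet response between the tissues was -0.78 (SE 0.28, adjusted p = 0.152).

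Chemerin was near the lower end of what the libraries could resolve. Rarres2 (chr6:48546630-48549762, minus strand, 4 rows) had 511 counts in all, between 4 and 51 in a library, and 2 of its rows had none. The levels ranged from 2.49 to 3.62 CPM in lean SAT, from 2.81 to 4.14 in obese SAT, from 2.32 to 4.94 in lean VAT and from 2.66 to 4.95 in obese VAT. All groups overlapped, and no comparison was called, with log2 values from -0.14 to 0.18 and SE between 0.28 and 0.41. With several rows that share sequence, the low sum cannot be read as low expression of the gene.

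Adipor2 was the receptor whose level turned with the diet in opposite directions in the tissues. Adipor2 (chr6:119330111-119394668, minus strand, 4 rows) encodes one of the membrane receptors of adiponectin. The row NM_197985 held 18158 of its 18463 counts, and, as for Retn, how reads were assigned between rows is uncertain. In SAT Adipor2 was at 80.8, 114, 94.8 and 89.7 CPM in lean replicates 1 to 4 and at 128, 141, 169 and 150 CPM in obese mice. In VAT it was at 113, 144, 132 and 119 CPM in lean and 67.8, 102, 83.0 and 51.3 CPM in obese mice. In both tissues the diets did not overlap, with obese mice above lean mice in SAT and below them in VAT.

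The mean of Adipor2 rose from 94.9 ± 14.2 to 147 ± 17.2 CPM in SAT (SD, n = 4), a log2 fold change of 0.63 (SE 0.16, adjusted p = 0.0134, edgeR), and fell from 127 ± 13.8 to 76.0 ± 21.6 CPM in VAT (-0.74, SE 0.16, adjusted p = 0.00432). Relative to adipocyte markers the value in VAT was -0.15 (exact permutation p = 0.4, n = 4). The rise in SAT was 0.56 and not called without obese replicate 3 (adjusted p = 0.0602), and 0.43 and not called with library totals in place of TMM factors (adjusted p = 0.0548). The difference of the diet response was -1.41 (SE 0.19, adjusted p = 1.72e-04, edgeR). It was called under each alternative tried, with values from -1.56 to -1.19. Of the 13 adipocyte markers, Lipe, Plin1, Cd36 and Dgat2 also had a lower diet response in VAT than in SAT (Lipe -0.67, Plin1 -0.69, Cd36 -0.76), and their part in the value of Adipor2 was not tested. In lean mice Adipor2 was higher in VAT in 4 of 4 mice (0.42, SE 0.13, adjusted p = 0.0313), a call that was lost when any 1 of the lean mice was left out (0.39 to 0.45, adjusted p = 0.0767 to 0.136), without the mouse as a block (0.43, adjusted p = 0.0857) and with both shallow VAT libraries left out (0.41, adjusted p = 0.0914). In obese mice it was lower in VAT in 4 of 4 mice, by 1.38 to 2.92 times (-0.99, SE 0.13, adjusted p = 8.85e-06).

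**Figure D3:**
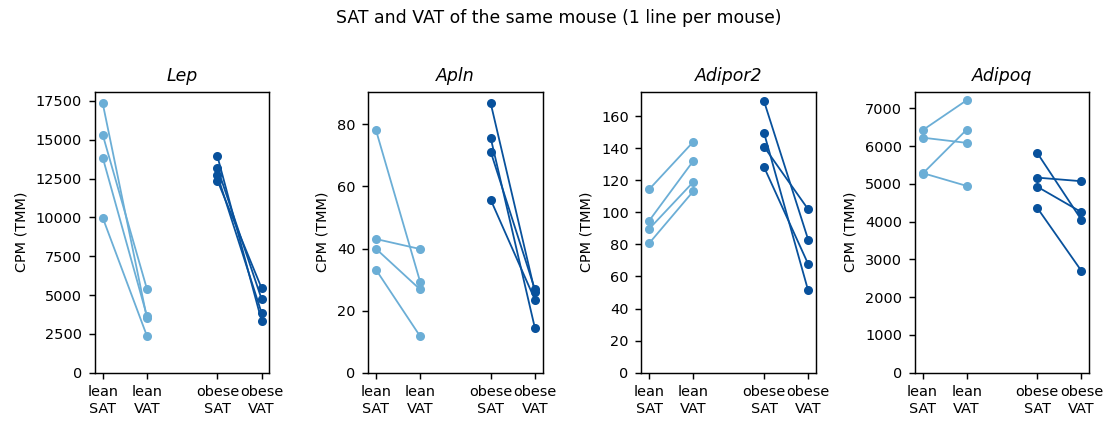
Level in CPM (vertical axis, from 0) of 4 genes in SAT and VAT, with 1 line for each of the 8 mice, lean mice on the left and obese mice on the right of each panel. Lep and Apln were lower in VAT in 8 of 8 mice, and Adipor2 was higher in VAT in 4 of 4 lean mice and lower in 4 of 4 obese mice.

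Adipor1 (chr1:134343077-134361092, plus strand, 2 rows), the receptor more typical of muscle, had 1365 counts in all. It ranged from 7.93 to 9.59 CPM in lean SAT, from 6.64 to 13.4 in obese SAT, from 8.23 to 23.3 in lean VAT and from 5.64 to 17.1 in obese VAT. All groups overlapped and no comparison was called, with log2 values between -0.37 and 0.32 and SE between 0.25 and 0.36. The highest value of each VAT group was again that of replicate 1, the shallowest library, and in these libraries 80.0% and 57.8% of the counts lay on the row NM_028320, compared with 35.1% to 68.9% in the other 14 libraries.

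Cdh13 (chr8:119010328-120051660, plus strand) encodes T-cadherin, which binds adiponectin at the cell surface. It had 5 counts in lean SAT, 3 in obese SAT, 3 in lean VAT and none in obese VAT, all on XM_006530628, and none on NM_019707. A count of 0 allows up to 3 counts, which is 0.182 CPM of the library total in the deepest library without a count and 2.39 CPM in the shallowest, for counting error only. No difference was detectable with these counts. As for Retn, how reads were assigned between rows is uncertain for Adipor1 and Cdh13, so their low sums cannot be read as low expression.

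**Figure D4:**
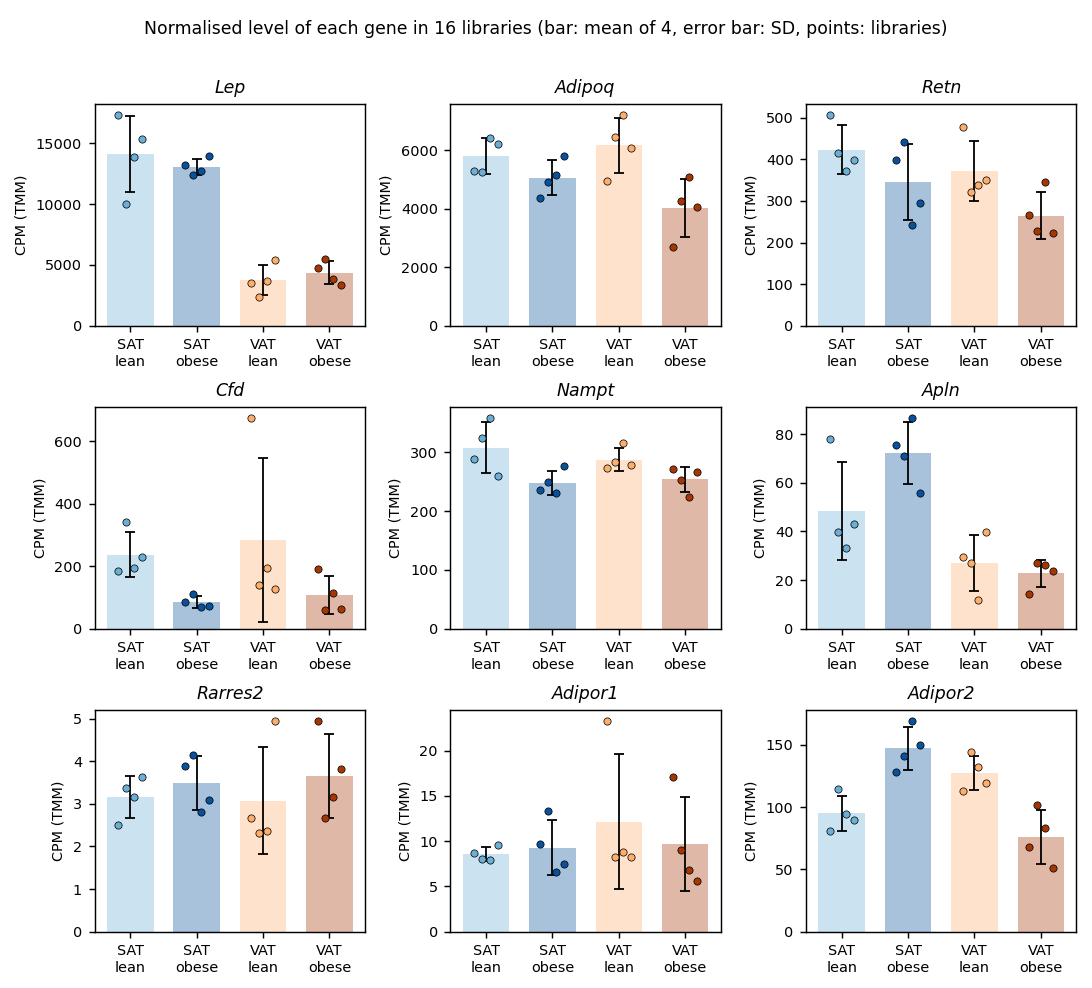
Level in CPM with TMM library sizes (vertical axes, from 0) of the 9 tested genes in lean and obese SAT and VAT, with points for libraries, bars for the mean of 4 and error bars for the SD. The plot shows the gap between tissues for Lep, the opposite diet responses of Adipor2, and the single lean VAT library at 675 CPM of Cfd and 23.3 CPM of Adipor1.

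Because adipocyte markers themselves moved, each gene was also set against them. The reference was the mean log2 CPM of 13 tested adipocyte markers, chosen by name. It was 7.66 ± 0.15 in lean SAT, 7.67 ± 0.12 in obese SAT, 7.47 ± 0.23 in lean VAT and 6.84 ± 0.19 in obese VAT (SD, n = 4). In obese VAT 4 of the 13 markers fell (Car3, Lpl, Lipe and Plin1) and none rose. In obese SAT Cd36 and Mrap rose while Car3 and Lpl fell. Differences in the log2 ratio were compared by two-sided exact permutation tests over 70 assignments of 4 of 8 libraries, for which the smallest possible p is 0.0286. There were 18 such comparisons, and their p-values are not adjusted.

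Relative to adipocyte markers, Lep was higher in obese VAT. The log2 ratio was 4.59, 3.85, 4.18 and 4.75 in lean replicates 1 to 4 and 5.35, 5.37, 5.04 and 5.13 in obese VAT, with no overlap (difference 0.88, exact permutation p = 0.0286). Without the reference, the fitted difference of Lep was 0.21, as given above. Nampt was also higher relative to the markers in VAT (0.45, exact permutation p = 0.0286, no overlap) while its fitted value without the reference was -0.18. For Adipoq the ratio in VAT was 5.11 ± 0.15 in lean and 5.10 ± 0.42 in obese mice (difference -0.01, exact permutation p = 0.971, n = 4), beside a fitted log2 fold change of -0.62 without the reference. For Cfd in VAT the ratio differed by -0.58 with overlap (exact permutation p = 0.571, n = 4), beside a fitted -1.40.

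In SAT the mean log2 level of the markers differed little between diets, and the ratios stayed close to the fitted values. The summed level of the markers, which the most abundant of them set, was lower in obese SAT without overlap, as given above. Ratios to that sum were not computed. Relative to the mean log2 level of the markers, Cfd was lower (-1.47, exact permutation p = 0.0286, no overlap). Adipor2 was higher by 0.63 (exact permutation p = 0.0571, n = 4), with the lowest obese ratio just below the highest lean one. With Plin1 and Lipe as the reference the values were -1.46 for Cfd and 0.64 for Adipor2. The part of cell composition in these differences was not tested.

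**Figure D5:**
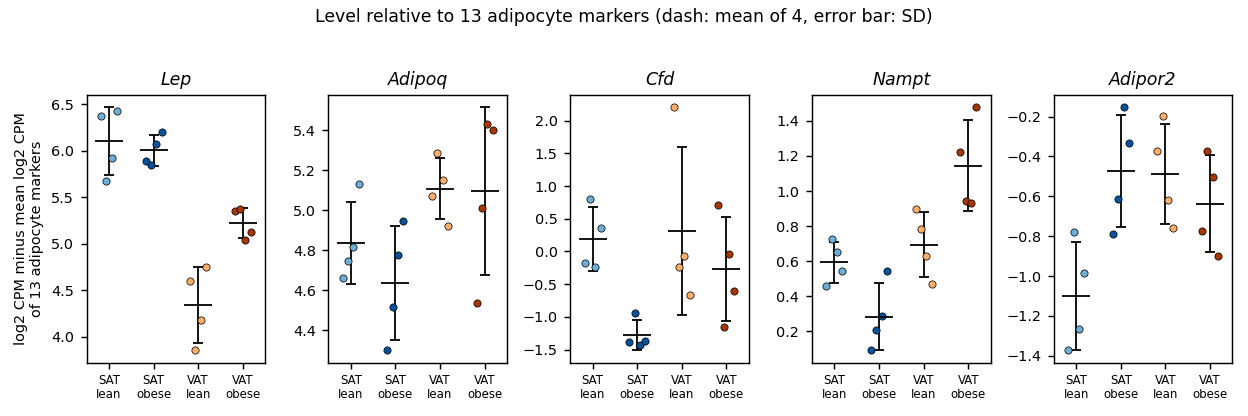
Log2 CPM of 5 genes minus the mean log2 CPM of 13 adipocyte markers (vertical axes, not starting at 0) in lean and obese SAT and VAT, with points for libraries, dashes for the mean of 4 and error bars for the SD. In VAT the obese libraries lie above the lean ones for Lep and Nampt, and for Adipoq and Adipor2 they overlap.

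The counts in the lists of related genes that follow stand beside 6.35% of all features higher and 5.25% lower in obese SAT, and 6.89% higher and 5.28% lower in obese VAT, and 1 gene called in a list of 7 to 20 is near those shares. Of 10 tested receptors and coreceptors of these ligands, Cmklr1 and Adipor2 rose and none fell in obese SAT, and Adipor2 fell and none rose in obese VAT (list medians 0.41 and 0.16). Cmklr1, a chemerin receptor of macrophages and adipocytes, rose from 6.80 ± 2.12 to 16.2 ± 2.00 CPM in SAT (1.23, SE 0.20, adjusted p = 3.81e-04, edgeR). In VAT it was at 8.90 ± 2.21 and 10.4 ± 0.917 CPM (0.16, SE 0.21), and the difference of the diet response was -1.11 (SE 0.29, adjusted p = 0.0475). Aplnr, the apelin receptor, was lower in VAT than in SAT in lean mice (-1.10, SE 0.19, adjusted p = 2.77e-04, edgeR) and in obese mice (-1.48, SE 0.19, adjusted p = 3.93e-06), the same direction as its ligand. Of 10 tested genes of adiponectin signalling and the PAQR family, to which the receptors belong, Paqr9 alone was called in any of the 5 comparisons. It rose in SAT from 407 ± 160 to 847 ± 136 CPM (1.06, SE 0.26, adjusted p = 0.0094), was 281 ± 100 CPM in obese VAT against 274 ± 74.0 in lean VAT, and its diet response differed between the tissues by -1.14 (SE 0.17, adjusted p = 0.00105).

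Among 11 genes of adiponectin assembly and secretion, Gstk1 (DsbA-L), which aids the assembly of adiponectin multimers, fell in both tissues. It went from 158 ± 20.6 to 93.5 ± 5.50 CPM in SAT (-0.76, SE 0.16, adjusted p = 0.0029, edgeR) and from 121 ± 27.6 to 85.2 ± 18.2 CPM in VAT (-0.51, SE 0.16, adjusted p = 0.0394). The chaperone Canx rose in SAT (0.52, SE 0.16, adjusted p = 0.0438), and the other 9 genes were called for diet in neither tissue. The list medians were 0.18 in SAT and 0.065 in VAT. None of 4 tested C1q/TNF-related proteins, the paralogs of adiponectin, was called for diet.

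In leptin signalling, 2 of 7 tested genes rose and 1 fell in obese SAT, and 1 rose and 1 fell in obese VAT. Irs1, a substrate of the insulin receptor, fell from 302 ± 51.5 to 91.2 ± 13.1 CPM in SAT (-1.73, SE 0.16, adjusted p = 6.14e-07, edgeR) and from 199 ± 37.0 to 66.5 ± 13.5 CPM in VAT (-1.58, SE 0.17, adjusted p = 1.94e-06). Irs2 rose in SAT (0.84, SE 0.15, adjusted p = 9.58e-04), as did Stat3, the transcription factor of the leptin receptor (0.62, SE 0.15, adjusted p = 0.0103). Socs3, which inhibits that receptor, rose in VAT (0.77, SE 0.24, adjusted p = 0.0347).

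In the alternative complement pathway, downstream of Cfd, 2 of 9 tested genes rose in obese SAT, 3 rose in obese VAT and none fell in either (medians 0.35 and 0.29). Cfp (properdin), which stabilises the convertase, rose in VAT from 97.1 ± 24.2 to 158 ± 24.2 CPM (0.73, SE 0.16, adjusted p = 0.00428). C3ar1, the C3a receptor found on macrophages, rose in SAT (1.07, SE 0.20, adjusted p = 9.65e-04) and in VAT (1.71, SE 0.20, adjusted p = 6.70e-06), along with the macrophage markers given above, whose part in it was not tested. C3 was higher in VAT than in SAT in lean mice, at 2438 ± 415 and 409 ± 134 CPM (2.62, SE 0.14, adjusted p = 4.96e-11), and was not called for diet.

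Of 11 tested genes of NAD salvage and synthesis, the pathway of Nampt, Bst1 and Cd38 rose in both tissues and Nmnat2 fell in SAT. Cd38, an NAD-consuming enzyme of immune cells, rose from 82.3 ± 10.1 to 121 ± 9.65 CPM in SAT (0.55, SE 0.15, adjusted p = 0.0153, edgeR) and from 91.7 ± 9.66 to 144 ± 37.1 CPM in VAT (0.66, SE 0.15, adjusted p = 0.00448). Macrophage markers rose in both tissues, as given above, as did 1 of 5 tested T cell markers in SAT and 4 in VAT and 3 of 7 B cell markers in VAT (none in SAT), and their part in the rise of Cd38 and Bst1 was not tested. The medians of this list were -0.020 and 0.046.

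Of 20 other secreted factors of fat tested, 3 rose and 4 fell in obese SAT, and 4 rose and 1 fell in obese VAT (medians 0.092 and 0.25). Lcn2 (lipocalin) rose from 2.35 ± 0.974 to 12.7 ± 3.07 CPM in SAT and from 12.2 ± 3.89 to 25.4 ± 7.03 CPM in VAT. Agt, the angiotensin precursor, fell from 5.10 ± 2.48 to 0.168 ± 0.158 CPM in SAT and from 12.9 ± 4.47 to 2.35 ± 0.637 CPM in VAT. Sfrp5, a secreted Wnt inhibitor, fell in SAT (-0.60, SE 0.16, adjusted p = 0.0188, edgeR) and was at 0.44 in VAT (SE 0.17, adjusted p = 0.0909). The difference of its diet response was 1.03 (SE 0.18, adjusted p = 0.0024), the opposite sign to that of Adipor2.

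Of 14 tested transcription factors of adipokine genes, Cebpd rose in both tissues, Klf15 fell in SAT, and Ebf2 and Ebf1 fell in VAT (medians 0.11 and -0.095). Cebpd, of the C/EBP family, went from 7.83 ± 4.48 to 20.7 ± 8.83 CPM in SAT (1.40, SE 0.44, adjusted p = 0.0425, edgeR) and from 17.0 ± 14.3 to 44.1 ± 18.1 CPM in VAT (1.61, SE 0.45, adjusted p = 0.0199), with overlap in both.

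The genes whose levels followed each member most closely over the 16 libraries were named by their Pearson correlation of log2 CPM, as a description, since the libraries share tissue, diet and depth. For Lep they were Jpt2 (r = 0.968), Twist1 (r = 0.964) and 1700047G03Rik (r = 0.952), which like Lep had lower levels in VAT: Twist1 was at 69.2 CPM in lean SAT and 9.65 CPM in lean VAT. For Apln they were Gm13387 (r = 0.972), Ltv1 (r = 0.895) and Slc22a3 (r = 0.878). Those of Adipoq were the mitochondrially encoded ND4 (r = 0.925) and COX1 (r = 0.918) and the mitochondrial enzyme gene Echs1 (r = 0.917). Adipor2 was followed by Pxdn (r = 0.901), Nedd4 (r = 0.889) and Cpd (r = 0.873), each with a positive log2 fold change in SAT and a negative one in VAT. The closest to Cfd was Ctdspl (r = 0.897), to Retn Gpt (r = 0.881), to Nampt Gm17597 (r = 0.832), to Adipor1 Ilk (r = 0.94) and to Rarres2 Ankrd46 (r = 0.72). Among the 9 tested genes themselves, the highest correlation was that of Lep and Apln (r = 0.771, n = 16), and of their deviations from the group means it was 0.249. For Cfd and Adipor1 the deviations correlated at 0.82, and the 2 shallow VAT libraries had the highest values of both genes within their groups.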

How the data were processed

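RNA from inguinal SAT and mesenteric VAT of 8 mice was sequenced as poly(A) paired-end libraries. Per the submitters' processing notes, the authors trimmed reads with Trim Galore 0.6.6 (the study's methods give another version), aligned them to GRCm39 with HISAT2 2.2.0 and counted them with HTSeq 0.13.5, in rows named by RefSeq transcript. The kit keeps strand, and the strand and overlap settings of the counting are not given in the sources used here. The deposited table holds 16 columns of raw counts and 16 of CPM; the deposited CPM equal the counts scaled to the column total (largest difference 4.9e-10). The CPM columns were used only for this check.

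Rows were given symbols by RefSeq identifier (82.0% of 130343 rows, 98.9% of counts), and the counts were summed per symbol. edgeR 4.0.16 in R 4.3.3 was used with TMM, the quasi-likelihood F-test (legacy=TRUE) keeping features that exceeded a CPM of 1 in 3 or more libraries. The biological coefficient of variation was 0.205. Diets were compared in a fit of 4 group means over all 16 libraries. Tissues, and the difference of the diet response, were compared with the mouse (8 levels) as a block. The methods describe paired tissues of an individual, and the replicate number in the labels was taken to name the mouse. Deviations from group means correlated at -0.0097 to 0.186 in the 8 pairs from a mouse (median 0.0748). In 24 pairs from different mice of a diet they correlated at -0.169 to 0.13 (median -0.0372). In 8 pairs of a lean and an obese library that share only tissue and number they correlated at -0.0968 to 0.186 (median 0.0691). Deviations cancel within a group, so the values for different mice of a diet depend on those within a mouse and are no separate comparison. Pairs that share only tissue and number correlated about as much as pairs from a mouse, so the check does not show the pairing. SE is the log2 fold change divided by the root of F, and 95% intervals are 1.96 SE either side. Levels are CPM with TMM library sizes, and ratios to adipocyte markers used a prior of 0.5 counts.

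The 24 pairs of libraries within groups correlated at 0.914 to 0.984 in log2 CPM, with a chi-square per degree of freedom of at least 9.86, so none were copies. On simulated data, 200 of 12185 genes were changed by a log2 value of 2 in a single group at a time. The tests recovered 84.5% of them in SAT, 82% in VAT, 78% between tissues of lean mice and 80.5% of obese mice. They recovered 62.5% and 61% of the differences between tissues. Of the genes called, 5.2% to 7.58% were false, where 5% was the nominal limit. The simulated libraries were drawn from a common mean per gene, without a mouse effect or any group difference other than these changes. A log2 value of 2 is larger than every fitted change of the genes described here, so recovery of changes of their size was not examined.

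The genes and lists were chosen by name, with earlier results of these data known. For each gene the 3 closest genes by correlation were recorded, of which some are named, and of the lists of related genes at most the 5 with the smallest adjusted p in a comparison could be named. The alternatives were RLE and upper quartile factors, no filter, filterByExpr, DESeq2 1.42.0, legacy=FALSE, limma 3.58.1 voom, rows as deposited, a tissue alone, blocks added or dropped, each mouse left out, and the limit of 1.5. Library totals without TMM factors, and leaving out VAT of lean replicate 1 and of obese replicate 1, were added after seeing the data. Python 3.11.15, scipy 1.17.1 and matplotlib 3.10.9 made tables and figures. Promoters came from RefSeq, and gene positions from GENCODE on GRCm39.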

Additional observations from a re-analysis of the deposited data

Results flagged for a closer look

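Adipor2 responded to the diet in opposite directions, and the test of the difference between the tissues gave -1.41 on the log2 scale (adjusted p = 1.72e-04, edgeR). The study of these libraries also lists Adipor2 among genes with opposite diet responses in the tissues, at its weaker fold change limit. In SAT all 4 obese libraries lay above the 4 lean ones and in VAT all 4 lay below. Relative to adipocyte markers the value in VAT was -0.15 (exact permutation p = 0.4, n = 4), against a fitted -0.74.

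Single libraries stood far from the other 3 of their group in 3 of 36 groups examined, where chance gives about 1 in 20. In lean VAT, replicate 1 was at 675 CPM of Cfd, with the others between 127 and 194, and at 23.3 CPM of Adipor1, with the others between 8.23 and 8.83. That library has 1256082 counts, the fewest of all. Without lean replicate 1 the fall of Cfd in VAT was -0.56 and not called, and with obese replicate 1, the other shallow library, also left out it was -0.96 and called. Also in lean VAT, replicate 4 was at 4.94 CPM of Rarres2, with the others between 2.32 and 2.66. The causes were not tested.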

How the results depend on the processing

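Among 1053 values recomputed under an alternative, 966 kept their direction and their side of the threshold, 29 lost their call, 15 gained one and 43 changed direction. Leaving out each mouse gave 0 to 3 genes called in SAT (0 without obese replicate 3, 1 without lean replicate 2 or obese replicate 4, and 2 with all mice) and 1 to 3 between the tissues of lean mice (1 without lean replicate 3). With the limit of 1.5 on the log2 fold change, 0 genes were called in SAT and 0 in VAT. The diet response differed between the tissues for 2 genes in place of 1 with rows as deposited (Adipor2, Retn), with library totals (Adipor2, Lep) and without a filter (Adipor2, Apln). With the replicate block 2 genes were called in SAT and 3 in VAT, as without it, so pairing lean and obese mice by number changed no call; without the mouse as a block 2 were called between the tissues in lean mice, 3 in obese mice and 1 for the difference, and over all features 139 differences were called in place of 301. Library totals gave 463, and without lean replicates 2, 3 and 4 and obese replicate 4 they were 173, 147, 177 and 135. Over all features, leaving out obese replicate 4 gave 847 calls in VAT and 2490 between the tissues of obese mice in place of 1482 and 3820, lean replicate 2 gave 926 in SAT in place of 1414, and lean replicate 3 gave 1276 between the tissues of lean mice in place of 1937.

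The changes of direction were in results that had not been called with the settings reported above. With library totals they were Retn between the tissues of obese mice (0.00099) and in the difference (0.059), Cfd and Nampt between the tissues of lean mice (0.017 and 0.048), Rarres2 and Adipor1 in SAT (-0.043 and -0.088) and Adipor1 between the tissues of obese mice (0.31). In that comparison Nampt turned to -0.00796 with upper quartile factors, -0.0029 without a filter and -0.019 without the shallow VAT libraries, Rarres2 to -0.00252 with upper quartile factors, -0.020 with limma voom and -0.042 without the shallow libraries, and Cfd to -0.14 without the shallow libraries. Cfd between the tissues of lean mice was 0.22 without the mouse as a block. Relative to adipocyte markers in VAT, Retn turned to 0.14, Nampt to 0.45, Apln to 0.48 and Adipor1 to 0.32, and with Plin1 and Lipe as the reference Adipoq was at 0.040.

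With each mouse left out, the values ranged from -0.26 to 0.00033 for Lep in SAT, -0.43 to 0.14 for Apln in VAT, -0.10 to 0.25 and -0.53 to 0.069 for Adipor1 in SAT and VAT, and -0.42 to 0.066 for Retn and -0.094 to 0.90 for Cfd in the difference. Between the tissues they ranged from -0.71 to 0.31 for Cfd and -0.38 to 0.022 for Rarres2 in lean mice, and from -0.099 to 0.59 for Cfd, -0.038 to 0.30 for Rarres2 and -0.28 to 0.17 for Adipor1 in obese mice. Ratios to adipocyte markers ranged from -0.24 to 0.016 for Lep, -0.014 to 0.25 for Rarres2 and -0.11 to 0.17 for Adipor1 in SAT, and from -0.12 to 0.17 for Adipoq and -0.91 to 0.052 for Cfd in VAT. The causes were not tested. Low counts limit Rarres2, Adipor1 and Cdh13, where the split of reads between rows is also uncertain, and p-values rest on 4 mice a group.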
